A study of Caenorhabditis elegans with 6 samples.

Results

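The cuticle collagen (*col*) genes were taken as every row of the deposited value table with a WormBase gene number from WBGene00000608, the number of *col-19*, to WBGene00000750. This block spans 143 numbers, and 112 of them had a row among the 17397 genes of the arrays. Of these 112 members, 96 entered the comparison between strains and 16 had an average too low to be tested. The tables used here pair 3 of the 112 members with a name, *col-19*, *col-103* and *col-158*, so that 3 of 3 were *col* genes. The other 109 members are given by their identifier, without the suffix "_at" of the value table, and whether each of them is a *col* gene was not checked. The annotation of WBcel235 by RefSeq lists 159 genes with a *col* symbol, from 12 on chromosome III to 42 on chromosome IV, but it carries no WormBase identifiers and could not be joined to the values. *col-19* lies on chromosome X from 421707 to 422691, *col-103* on chromosome IV from 762413 to 763678 and *col-158* on chromosome V from 11829582 to 11831219 of WBcel235.

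Cuticle collagens are short secreted collagens with Gly-X-Y repeats. The epidermis makes them, and after trimer assembly, trimming and cross-linking they form most of the cuticle, the exoskeleton of the nematode. Their transcripts are made in waves around each larval moult, each wave with genes of its own, and a smaller set that includes *col-19* is expressed in adults, where no further moult takes place.

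Day 9 adults of 2 strains were compared, wt (N2) and *dcap-1(tm3163)*, a reduction-of-function allele of a subunit of the mRNA decapping complex, hereafter *dcap-1(rf)*. Each strain was sampled as 3 populations of 200 to 300 whole worms, and each population had an array of its own. Both strains were grown at 20 °C on killed OP50 bacteria with 10 µg/mL FUDR, which stops progeny, so the values hold for sterile worms only. The mutant was represented by 1 allele, and allele and strain background cannot be told apart. In whole-worm RNA, fewer epidermal cells and less RNA per cell cannot be told apart either. Values are log2 RMA values with no detection call, and because probes differ in affinity, the order of genes by value is not an order of transcript amounts.

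The targeted gene *dcap-1*, on chromosome IV from 1052524 to 1054794, had values of 5.44, 5.30 and 5.26 on the wt arrays and 4.50, 4.52 and 4.65 on the *dcap-1(rf)* arrays. Its log2 fold change was -0.77 (standard error, SE, 0.08; limma adjusted p = 0.00469). Over all 13047 genes tested with limma, 211 had an adjusted p under 0.05, which is 1.62%, with 190 higher and 21 lower in *dcap-1(rf)*. Array medians ran from 2.18 to 2.24. Pearson's r across genes, which are not independent replicates, lay between 0.9902 and 0.9965 for pairs of arrays. None of these measures set an array far from the others, but the third *dcap-1(rf)* array stood apart for the *col* members, as described below, and values without it are given beside those it moved most.

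The members covered nearly the whole range of the arrays. Averages over all arrays ran from 0.79 for WBGene00000704 to 9.14 for WBGene00000693, at percentiles 4.12 and 99.1 of all genes, and the percentile of the median member was 50.2. Of the tested members, 14 lay above the third quartile of all tested genes, an average of 5.28, and 23 more lay between that and the median of all tested genes, 3.15. The 8 members with the highest averages were WBGene00000693, WBGene00000696, WBGene00000670, WBGene00000713, WBGene00000680, WBGene00000733, WBGene00000716 and WBGene00000675, with averages down to 7.15. The 5 with the lowest were WBGene00000612, WBGene00000679, WBGene00000632, WBGene00000628 and WBGene00000704, with averages of 1.04 or less. At such values signal and background are hard to tell apart, and 59 tested members lay below the median of all tested genes. WBGene00000693 had 9.22, 9.36 and 9.08 on the wt arrays and 9.08, 9.41 and 8.71 on the *dcap-1(rf)* arrays, and its groups overlap.

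**Figure D1:**
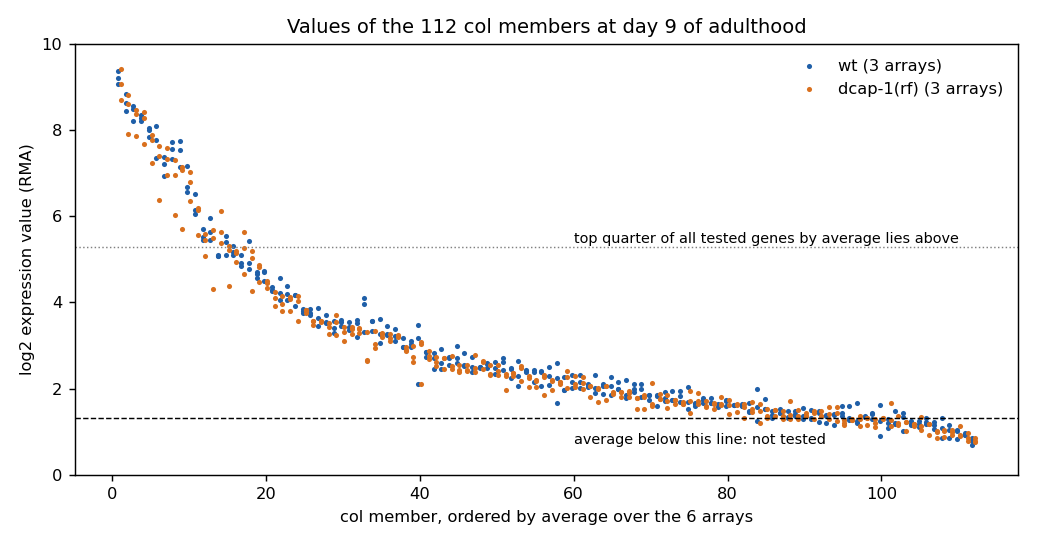
Log2 values of the 112 *col* members on each array, with members ordered by their average on the horizontal axis; blue points are the 3 wt arrays and orange points the 3 *dcap-1(rf)* arrays. The members run from an average of 0.79 to 9.14, the 16 below the dashed line at 1.32 were not tested, and the 14 above the dotted line at 5.28 spread more within *dcap-1(rf)* than the others.

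No member reached an adjusted p under 0.05 between the strains. The lowest adjusted p among the 96 tested members was 0.155, from limma with Benjamini-Hochberg adjustment over all genes, against 1.62% of all genes called. An unadjusted p under 0.05 was found for 13 members, which is 13.5% and close to the 13.8% of all genes. Of these 13, 12 were lower in *dcap-1(rf)*, 12.5% of the tested members, where 6.22% of all genes had an unadjusted p under 0.05 and were lower. The remaining member, *col-19*, was higher (1.04%, beside 7.59% of all genes).

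The log2 fold changes of the tested members were mostly small and mostly negative. Their median was -0.10, with quartiles of -0.20 and -0.03, beside a median of -0.02 over all genes tested. Between wt arrays the members also moved: relative to the wt means their median was 0.07 on wt replicate 2 and -0.08 on wt replicate 3. Members varied together from array to array, as described below, so this median and the counts that follow carry no test. 76 of 96 members (79.2%) had a lower mean in *dcap-1(rf)*, beside 55.4% of all genes. 90 members differed by less than 0.5 in either direction. A log2 fold change of -0.5 or lower was found for 5 members (5.21%), beside 0.835% of all genes, and of 0.5 or higher for 1 member (1.04%), beside 2.84% of all genes. The count of 5 rested on the third *dcap-1(rf)* array: without it 1 member, WBGene00000609, was at -0.5 or lower (1.04%, beside 0.682% of all genes), and without wt replicate 2 the count was 3. In 13 members (13.5%) every *dcap-1(rf)* array was below every wt array, beside 9.67% of all genes, and in 1 member (1.04%) all lay above, beside 8.93%.

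The precision of these values is set by the 3 arrays per group. The median standard error of the tested members was 0.11 and the median 95% interval from limma reached 0.25 to either side. For 89 of the 96 the interval lay within -1 and 1, so that a doubling or halving was outside it. The 7 exceptions were *col-19*, WBGene00000609, WBGene00000656, WBGene00000675, WBGene00000698, WBGene00000732 and WBGene00000733, which are described one by one. With the first component of the residuals as a covariate, WBGene00000656, WBGene00000675 and WBGene00000733 were called, and with the first 2 components WBGene00000656 and WBGene00000675, all lower in *dcap-1(rf)*. These components came from what the strain fit left over in the same arrays. They left each log2 fold change as it was and could only take away residual spread, so these calls are no independent support. Without the third *dcap-1(rf)* array, 64 of the same 96 members (66.7%) were lower, beside 55.3% of all genes, and their median was -0.07.

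**Figure D2:**
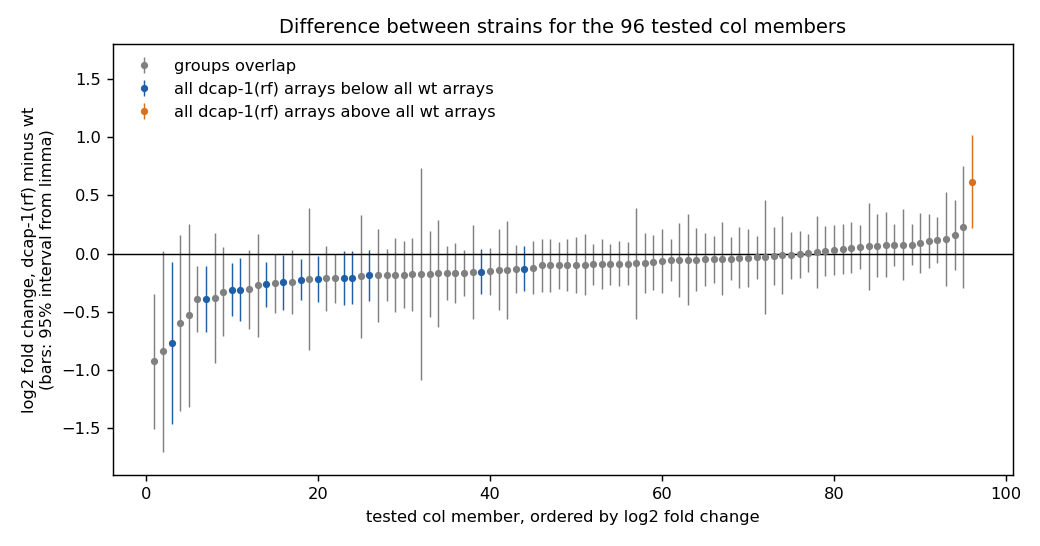
Log2 fold change, *dcap-1(rf)* minus wt, of the 96 tested *col* members in ascending order, with 95% intervals from limma as bars. 76 points lie below 0, most intervals include 0, and *col-19* at the right end is the tested member with all *dcap-1(rf)* arrays above all wt arrays.

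The member with the largest positive difference was *col-19*, the adult cuticle collagen named above. Its values were 5.08, 5.10 and 5.08 on the wt arrays and 5.63, 6.12 and 5.37 on the *dcap-1(rf)* arrays. All *dcap-1(rf)* arrays lay above all wt arrays, and the wt arrays lay far closer together than the *dcap-1(rf)* arrays, with SDs of 0.01 and 0.38 (n = 3 each). The log2 fold change was 0.62 (standard error 0.17, 95% interval from 0.22 to 1.02), a ratio of 1.54, with adjusted p = 0.166 from limma, and was not called. With an array left out the log2 fold change stayed between 0.41 and 0.78 and the adjusted p from limma between 0.0517 and 0.40. No other tested member had its groups apart in this direction.

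The values of *col-19* were set against those of the 13 other members above the third quartile, of which 1, WBGene00000716, also had a positive difference. Relative to the wt mean of the same gene, *col-19* was at 0.54, 1.03 and 0.29 on the first, the second and the third *dcap-1(rf)* array, while the median of the 13 others was at -0.11, 0.03 and -0.67. The distance of *col-19* above that median was 0.65, 1.00 and 0.96 on the *dcap-1(rf)* arrays and between -0.19 and 0.20 on the wt arrays. This comparison was chosen after the values were seen and carries no test.

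The other named members differed less. *col-103* had 4.91, 5.10 and 4.84 on the wt arrays and 5.26, 5.63 and 4.66 on the *dcap-1(rf)* arrays, for a log2 difference of 0.23 (limma adjusted p = 0.687), which was 0.49 without the third *dcap-1(rf)* array (limma adjusted p = 0.164) and 0.0054 without the second. *col-158* had 1.97, 2.28 and 1.98 in wt and 2.26, 2.42 and 2.02 in *dcap-1(rf)*, for a log2 difference of 0.16 (limma adjusted p = 0.632). In both genes the groups overlap. These names come from the part of a table of the study that holds genes with positive differences, so the direction of the 3 named members was fixed by how they were named.

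The member with the largest negative difference was WBGene00000609, which was chosen for description after its values were seen. It had 3.98, 4.10 and 3.31 on the wt arrays and 2.64, 3.31 and 2.66 on the *dcap-1(rf)* arrays. The third wt array and the second *dcap-1(rf)* array had nearly the same value, so the groups overlap there. The log2 fold change was -0.93 (standard error 0.25, 95% interval from -1.51 to -0.34), with adjusted p = 0.155 from limma, and stayed between -1.17 and -0.77 with an array left out.

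Of the members whose *dcap-1(rf)* arrays all lay below the wt arrays, WBGene00000675 differed most. Its values were 7.55, 7.74 and 7.32 in wt and 6.97, 7.31 and 6.04 in *dcap-1(rf)*, for a log2 difference of -0.77 (SE 0.30, limma adjusted p = 0.315). The difference was carried in large part by the third *dcap-1(rf)* array, and without it the log2 fold change was -0.40 (limma adjusted p = 0.313). The next by size was WBGene00000745, with 2.62, 2.71 and 2.43 in wt and 2.33, 2.30 and 1.97 in *dcap-1(rf)* and a log2 difference of -0.39 (limma adjusted p = 0.222). WBGene00000651 and WBGene00000721 had log2 fold changes of -0.31 each, WBGene00000694 of -0.26, WBGene00000718 of -0.25, and WBGene00000652 and WBGene00000725 of -0.22 each. These members had averages between 1.34 and 3.65, and their SDs within a group (n = 3) ran from 0.03 for WBGene00000725 in wt to 0.21 for WBGene00000721 in wt. The adjusted p over all 13 members with such an order lay between 0.222 and 0.532 from limma.

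**Figure D3:**
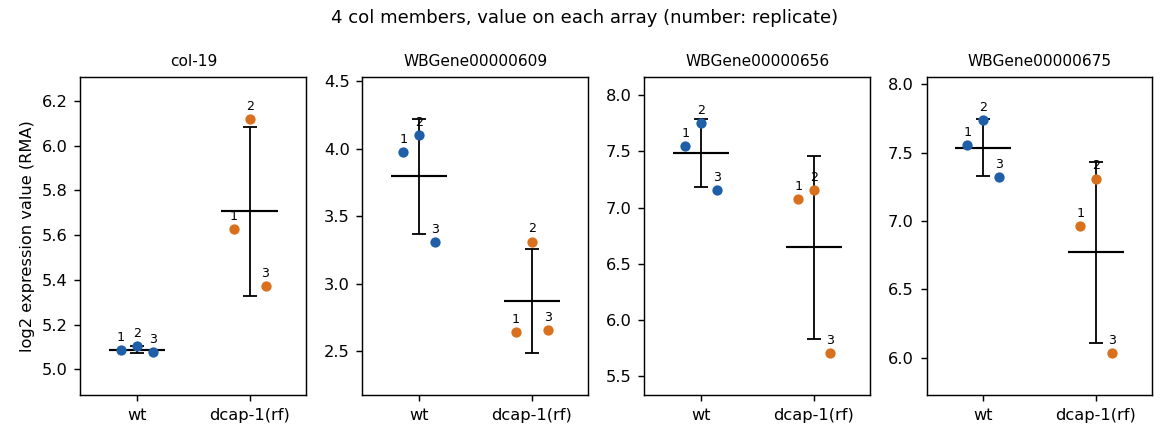
Log2 values of 4 *col* members on each array, with the replicate number beside each point, the group mean as a bar and the SD (n = 3) as whiskers; each panel has its own vertical scale. *col-19* has all *dcap-1(rf)* arrays above wt, WBGene00000609 and WBGene00000675 lie lower in *dcap-1(rf)*, and in WBGene00000656 and WBGene00000675 the third *dcap-1(rf)* array, at 5.71 and 6.04, lies far below the other arrays.

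Members with high values varied together from array to array, in both strains. Among the 14 members above the third quartile, the third wt array was the lowest of its group in 14 and the third *dcap-1(rf)* array was the lowest of its group in 14. Over all genes above the third quartile, these shares were 28.1% and 28%, and both held at once in 8.28%. The second array was the highest of its group in 13 of the 14 members in wt and in 13 in *dcap-1(rf)*, beside 18.9% and 37.6% of all such genes. Among the 23 members of the next quartile, the third array was the lowest of its group in both strains in 10 (43.5%, beside 11% of all such genes). In the members below the median of all tested genes this was so in 13 of 59 (22%, beside 12.6% of all such genes). Replicate numbers are names of populations here and stand for no order.

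The spread of these members was wider among the *dcap-1(rf)* arrays than among the wt arrays, a difference that was not tested. In the 14 members above the third quartile the SD over the 3 arrays of a group had a median of 0.20 for wt and 0.37 for *dcap-1(rf)*, beside 0.08 and 0.09 over all genes above that quartile. Relative to the mean of its own group, the median of the 37 members above the median of all tested genes stood at -0.00, 0.14 and -0.14 for the wt arrays in the order of their numbers. For the *dcap-1(rf)* arrays in that order it stood at 0.09, 0.20 and -0.25. The same median over all genes of that range stayed between -0.03 and 0.02 on every array. For 26 of the 37 members (70.3%) the third *dcap-1(rf)* array was the lowest of all arrays, beside 18% of all genes of that range, and for 20 (54.1%) the second wt array was the highest, beside 8.71%.

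**Figure D4:**
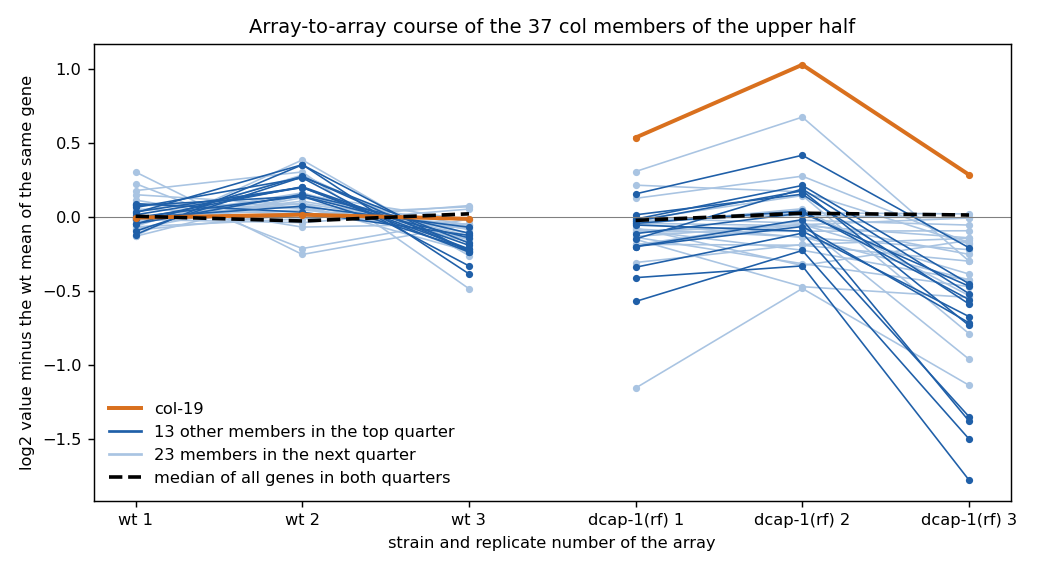
Log2 value minus the wt mean of the same gene, on each array, for the 37 *col* members with averages above the median of all tested genes; lines join the values of a gene within a strain and stand for no order. The dark lines of 13 members above the third quartile are low on the third array of both strains, *col-19* lies at 0.54, 1.03 and 0.29 on the *dcap-1(rf)* arrays, and the dashed median of all genes stays near 0.

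The size of the drop on the third *dcap-1(rf)* array differed among the members. Measured against the mean of the other *dcap-1(rf)* arrays, it was largest in WBGene00000656 (-1.41), WBGene00000698 (-1.27), WBGene00000733 (-1.13) and WBGene00000675 (-1.10), the 4 members where it was -1 or lower. In 15 of the 37 members (40.5%) it was -0.5 or lower, beside 6.30% of all genes of that range. In the 59 tested members with lower averages it was so in 1 (1.69%, beside 2.04%).

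WBGene00000656 had 7.55, 7.75 and 7.15 in wt and 7.07, 7.15 and 5.71 in *dcap-1(rf)*, the largest SD of any member within *dcap-1(rf)* (0.81, n = 3). Its log2 fold change of -0.84 (SE 0.37, limma adjusted p = 0.374) was -0.37 without the third *dcap-1(rf)* array (adjusted p = 0.392). WBGene00000733 had 7.76, 8.09 and 7.35 in wt and 7.39, 7.62 and 6.38 in *dcap-1(rf)*. Its log2 fold change was -0.60 (limma adjusted p = 0.467), and -0.22 without that array (adjusted p = 0.678). In both members the order of the replicates was the same in wt and in *dcap-1(rf)*.

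WBGene00000698 had 5.64, 5.97 and 5.46 in wt and 5.49, 5.67 and 4.31 in *dcap-1(rf)*, for a log2 difference of -0.53 (limma adjusted p = 0.531). Without the third *dcap-1(rf)* array the difference was -0.11 (limma adjusted p = 0.80). WBGene00000732 had the largest SD within wt, 0.73 (n = 3), with 3.17, 3.48 and 2.10 in wt and 3.05, 3.08 and 2.10 in *dcap-1(rf)*. On the third array of both strains it had the same low value, a repeat of the kind counted under the processing of the data. Its log2 fold change was -0.18 (limma adjusted p = 0.872).

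WBGene00000693, WBGene00000696, WBGene00000670, WBGene00000713 and WBGene00000680 had log2 fold changes of -0.16, -0.19, -0.19, -0.14 and -0.33. Without the third *dcap-1(rf)* array, WBGene00000693, WBGene00000696 and WBGene00000713 turned to 0.021, 0.075 and 0.085, while WBGene00000670 and WBGene00000680 stood at -0.00033 and -0.13. Of the 14 members above the third quartile, 12 were lower in *dcap-1(rf)* with all arrays, 8 without that array and 11 without the third array of both strains. WBGene00000716 was higher by 0.12 (95% interval from -0.28 to 0.53), and with *col-19* it made up the members of this range with a positive difference.

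Other genes of cuticle formation could be named only in small part, because most have no name in the tables used, and those named here came mostly from genes with positive differences. Of 21 collagens named for a body shape or blister phenotype, 2 could be named, *dpy-14* and *dpy-17*. *dpy-14* had 4.42, 4.56 and 4.18 in wt and 4.86, 5.11 and 4.67 in *dcap-1(rf)*, for a log2 difference of 0.49 (limma adjusted p = 0.174), and all *dcap-1(rf)* arrays lay above all wt arrays. *dpy-17* differed by 0.29 on the log2 scale (limma adjusted p = 0.309), also without overlap. Of 23 genes for hydroxylation, folding, cleavage and cross-linking of collagen, 4 could be named and 0 were called, with log2 fold changes from 0.16 for *dpy-18*, a prolyl hydroxylase subunit, to 0.42 for *dpy-31*, a metalloprotease that trims procollagen. The cuticlin-like gene *cutl-16* (0.36) was not called either. Of 19 regulatory genes listed for the epidermis and cuticle, 3 could be named and 0 were called, from 0.28 for *lin-28* to 0.39 for *elt-3*.

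The GATA factor *elt-3*, which acts in the epidermis, had the order of arrays found in most of the high members. Its values were 3.43, 3.49 and 2.91 in wt and 3.89, 4.02 and 3.09 in *dcap-1(rf)*, for a log2 difference of 0.39 (limma adjusted p = 0.548), or 0.68 without the third *dcap-1(rf)* array (limma adjusted p = 0.147), and the third array was the lowest of its group in both strains. Of 5 genes listed for the adult epidermis 4 could be named, and 3 of them, which encode antimicrobial peptides, were called. The other, *dod-3*, differed by 0.41 on the log2 scale (limma adjusted p = 0.174) and was not called. *nlp-29* had 5.08, 5.20 and 5.16 in wt and 6.64, 6.30 and 6.04 in *dcap-1(rf)*, and rose by a log2 fold change of 1.18 (limma adjusted p = 0.00843). *nlp-30* rose by 0.83 (limma adjusted p = 0.0255) and *cnc-2* by 1.55 (limma adjusted p = 0.0324). Their names, like those above, come from tables chosen by the study on these same arrays, so their direction is no independent result. These calls depended on the arrays used: without wt replicate 1 the limma adjusted p was 0.0618 for *nlp-29*, 0.128 for *nlp-30* and 0.148 for *cnc-2*. The call of *nlp-29* also ended without wt replicate 2 (limma adjusted p = 0.0572). That of *nlp-30* also ended without wt replicate 3 (0.0537), *dcap-1(rf)* replicate 1 (0.114) or *dcap-1(rf)* replicate 2 (0.0927). *cnc-2* remained called only without the third *dcap-1(rf)* array (limma adjusted p = 0.00491), and with another array left out its adjusted p was between 0.0949 and 0.148.

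Markers of other tissues moved in part with the third *dcap-1(rf)* array. Their names have the same source as those above, so the direction of their strain differences is no independent result. Of 8 markers of body wall muscle 5 could be named, *myo-3*, *unc-54*, *unc-15*, *unc-22* and *mlc-1*. In 5 of 5 that array was the lowest of *dcap-1(rf)*, while the third wt array alone was the lowest of wt in 0. In *myo-3* the third wt array tied with the second as lowest at 3.01, the value also found on the third *dcap-1(rf)* array. The mean value of the 5 markers was 4.51, 4.75 and 4.06 on the *dcap-1(rf)* arrays in the order of their numbers, and between 4.12 and 4.25 on the wt arrays. The basement membrane collagens *emb-9* and *let-2*, made largely by muscle, had 6.34, 6.33 and 5.47, and 5.87, 5.70 and 5.02 in *dcap-1(rf)*. Without that array both were called higher, *emb-9* by 0.49 (limma adjusted p = 0.0393) and *let-2* by 0.54 (limma adjusted p = 0.0350), where with all arrays they were not (adjusted p = 0.724 and 0.573). For 4 intestinal markers the mean value was 7.33, 7.37 and 7.42 on the *dcap-1(rf)* arrays, and for 2 neuronal markers 5.23, 5.21 and 5.37, neither lowest on the third. The pharyngeal marker *pqn-94* was lowest on the third array of both strains, with 4.34, 4.07 and 3.94 in wt and 4.45, 4.49 and 3.86 in *dcap-1(rf)*.

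Single markers also differed between the strains, with the same limit from how they were named. Among the intestinal markers, the protease gene *asp-1* (0.73, limma adjusted p = 0.0124) and the intermediate filament gene *ifb-2* (0.74, limma adjusted p = 0.0296) were called higher, while the yolk protein gene *vit-3* was at -0.35 (limma adjusted p = 0.114). The call of *asp-1* ended without wt replicate 1, wt replicate 2 or *dcap-1(rf)* replicate 2, and *ifb-2* remained called only without *dcap-1(rf)* replicate 1. Of 13 sperm markers 3 could be named, of which *msp-76* (3.53, limma adjusted p = 0.000218) and *nspd-1* (3.16, limma adjusted p = 0.000337) were called higher, also with any array left out, and *spe-11* was not (0.25). The part of tissue composition in the array differences of the *col* members was not tested. No marker of the larval moult or of oocytes could be named here, so the presence of larvae was not checked.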

How the data were processed

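The deposited log2 values, 1 per gene and array, were made by the authors: RMA with its default settings, on probe sets defined by BrainArray ENSG 21.0.0, after quality control of the arrays. The submitters' processing notes name R 3.3.0. Surrogate variable analysis is named in the methods, without a number of variables, and whether the deposited values carry it is not stated. For the comparison of strains, limma 3.58.1 (R 4.3.3) was given strain as the only term, after genes in the lowest 25% by average had been set aside, with empirical Bayes moderation and Benjamini-Hochberg adjustment over 13047 genes, with genes called at an adjusted p under 0.05. The comparison was tested on simulated data. 20 of the 112 members have exactly the same value on at least 2 arrays. With 3 arrays per strain, exact permutation reaches no p under 0.10, so none is given. P-values from limma weigh the strain difference against the spread between these populations, moderated over all tested genes. The labels call the populations biological replicates. Probe and gene sequences were not used here, so signal shared between similar collagens was not separated, and no sequence is shown.

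The members and gene lists were chosen with earlier results of these data known. Members described are *col-19*, the 8 highest and 5 lowest averages, up to 8 members per direction with the largest differences among those whose groups do not overlap, the 3 largest SDs, members with a name, in each list of cuticle genes the extremes, and called genes of the marker lists; WBGene00000609, WBGene00000698 and WBGene00000733 were added after their values were seen. Names come from the study's supplementary tables, and positions from RefSeq. Alternatives were other filters, another prior variance, components of the residuals as covariates, centring, quantile normalization, array weights, a replicate block, and leaving out arrays. Tables and plots used Python 3.11.15, pandas 2.3.3 and matplotlib 3.10.9.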

Additional observations from a re-analysis of the deposited data

How the results depend on the processing

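The number of *col* members called was 0 in the comparison as reported, without the filter, with the lowest 50% of genes removed, with a trend and robust prior variance, with centred, quantile-normalized or weighted arrays, and with any array left out. It was 3 when 1 component of the residuals was a covariate and 2 when there were 2; the members are part of the genes those components were computed from. With the replicate number as a block it was 1, WBGene00000609 (limma adjusted p = 0.0345), and 246 genes were called in all; *dpy-14* was called too (limma adjusted p = 0.046). The numbers were not taken to pair the arrays, since the deviations of same-numbered arrays correlated at 0.05, 0.08 and 0.12 over all genes. Over all genes every array did correlate best with its own number, a hint from the data and not from the design. Over the members this held only in part. There, *dcap-1(rf)* replicates 2 and 3 correlated best with their own number, at 0.427 and 0.433. In contrast, *dcap-1(rf)* replicate 1 correlated at 0.0147 with its own number and at 0.442 with wt replicate 2. Leaving out both arrays numbered 3, an alternative chosen after seeing the data, gave 0 called members and a median of -0.10.

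The median log2 fold change of the members stayed between -0.14 and -0.06 with an array left out. The number of lower members was 48 of 57 with the lowest 50% of genes removed, since fewer members were tested, and between 66 and 79 with an array left out. Members whose groups do not overlap numbered between 17 and 36 with an array left out and 43 without both arrays numbered 3, as fewer arrays separate more easily. All genes called numbered 328 and 411 with 1 and 2 components, and between 84 and 306 with an array left out: 94 and 84 for the first 2 wt arrays, 122 for *dcap-1(rf)* replicate 2.

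Small differences changed sign with an array left out, and the cause was not tested. WBGene00000732 ranged from -0.58 to 0.15, with 0.11 when wt replicate 2 was left out. WBGene00000716 ranged from -0.025 to 0.29, WBGene00000693 from -0.33 to 0.021, WBGene00000696 from -0.38 to 0.075, WBGene00000713 from -0.29 to 0.085 (0.05 with both arrays numbered 3 left out) and *unc-22* from -0.0047 to 0.39 (0.46 with both arrays numbered 3 left out). The number of arrays, and for members with low averages the lack of a detection call, limit what these values show.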
